A study of Mus musculus with 6 samples.

Results

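The 58 genes described here encode nucleolar proteins that build ribosomes, out of 56691 genes in the deposited expression table. They were taken from the table by gene symbol, and the symbols had been listed with the KIRA6 against vehicle result of these libraries known. Their difference between the groups is therefore given as a description, with no test over the list and no p-value for a single member. All 58 symbols were found, each in 1 row, and all 58 passed the filter on low values (a mean of at least 0.5 FPKM, fragments per kilobase of exon scaled by library size, over the libraries), so the filter removed none of them. The cells were 4T1, an established line from a mammary carcinoma of a BALB/c mouse. The groups were 4T1 cells given KIRA6 at 1 µmol/L for 4 h (3 libraries) and 4T1 cells given vehicle for 4 h (3 libraries), both after overnight plating. KIRA6 is a kinase inhibitor made to dampen the RNase of IRE1α, the folding stress sensor of the endoplasmic reticulum, and other kinases have been reported among its targets. The labels give a single line, name no genetic change, do not say that replicates came from separate cultures and give no batch, so the spread between libraries may be technical.

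Ribosome assembly begins in the nucleolus, where RNA polymerase I copies the ribosomal DNA into a long precursor that holds the 18S, 5.8S and 28S rRNAs. Small nucleolar RNAs (snoRNAs) in protein complexes guide methylation (box C/D) and pseudouridylation (box H/ACA) of that precursor, the small subunit processome folds and cuts its 18S end, and separate sets of assembly factors shape the 40S and 60S subunits and send them to the cytoplasm. The genes for these factors are expressed together in growing cells, are known targets of MYC, and are commonly high in tumour lines. The roles given below were worked out mostly in budding yeast and human cells.

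Each library held 18215100 to 21347650 fragments with KIRA6 and 16496800 to 18581050 with vehicle, recovered from the steps between low values. The depth was not limiting for the members: the lowest library value, that of Nol8, rested on 83.1 fragments, and every value of the other 57 members on at least 283. Genes listed above 0 numbered 17801 to 18060 with KIRA6 and 16474 to 16843 with vehicle, and mitochondrially encoded genes took 2.66% to 3.25% of fragments with KIRA6 and 1.75% to 2.03% with vehicle. The epithelial markers Krt8, Krt18, Epcam and Cdh1 lay between 36.0 and 772.1 FPKM in every library. Ptprc, Cd3e, Adgre1, Pecam1, Cdh5 and Kdr, which mark leukocytes and endothelium, reached at most 0.04 FPKM, and Cd68 had 3.06 to 3.80 FPKM with KIRA6 and 1.66 to 2.61 FPKM with vehicle. KIRA6 replicate 1 and Vehicle replicate 3 stood apart from the rest of their groups on the second principal component (35.1% of the variance). On the first (56.0%) they lay between the groups. There KIRA6 replicate 1 was at −11.0 against −42.0 and −48.6, and Vehicle replicate 3 at 10.2 against 47.7 and 43.8. Total calls over all genes, the members and the other ribosome biogenesis genes are given with and without these libraries, and most other counts only with them. The part that depth, the mitochondrial share and these libraries have in the results below was not tested.

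Most of the 58 genes were lower in KIRA6-treated 4T1 cells. The fit over all 11778 genes tested called 42 of the 58 lower and 0 higher at an adjusted p below 0.05 (limma on log2 of FPKM plus 0.5), where 7.98% of all genes were called lower and 15.6% higher. At an unadjusted p below 0.05, 50 members were lower and 0 higher, and limma-voom on estimated fragments called 43 lower and 0 higher. Because the members were listed with this contrast known, these counts describe them and support nothing further. In 48 members every KIRA6 library was below every vehicle library, against 14.1% of all genes tested, and in 1, Nop53, every KIRA6 library was above, against 27.7%. In the remaining 9 members the groups overlapped.

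The median log2 fold change of the members was −0.98, against 0.16 for all genes tested, so the members lay 1.14 below the median gene. Fold changes here are on the log2(FPKM + 0.5) scale, where the change of genes with low values is understated, and are not corrected for the shift of 0.16. The KIRA6 mean was less than 0.5 times the vehicle mean in 30 members. Summed over the 58, the level was 1861, 1840 and 1706 FPKM in the KIRA6 libraries (replicates 1, 2 and 3, the order used throughout) and 3663, 3528 and 3117 FPKM in the vehicle libraries. As a share of all fragments the members took 0.651% ± 0.0147 with KIRA6 and 1.25% ± 0.0499 with vehicle (SD, n = 3 each), a ratio of 0.52. The lowest vehicle library, replicate 3, was still well above the highest KIRA6 library on both measures. In bulk RNA, fewer cells that express a gene and less of its RNA per cell cannot be told apart.

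**Figure D1:**
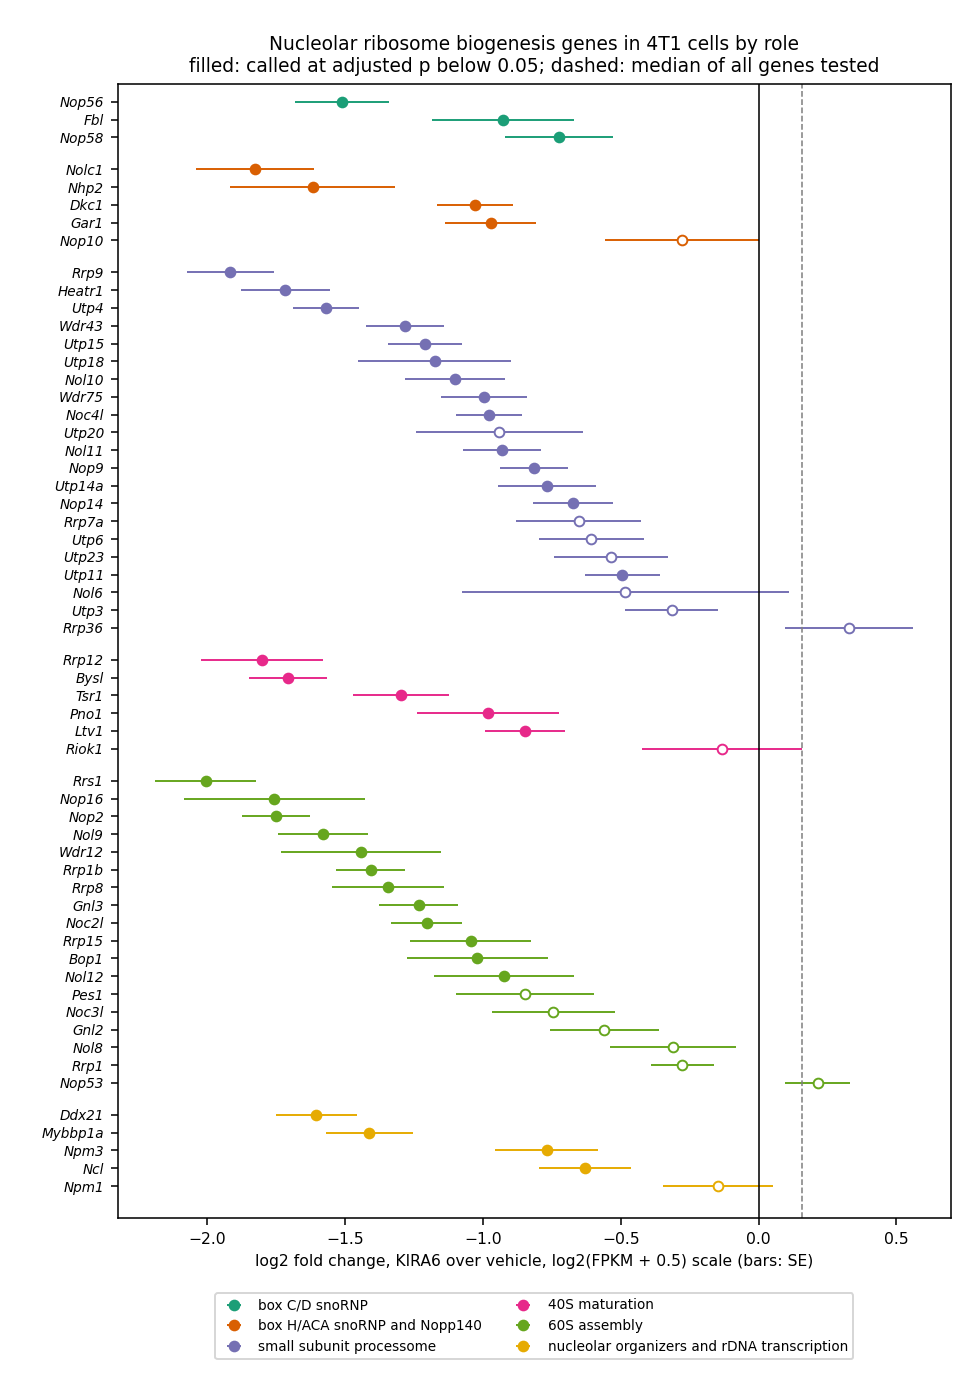
Log2 fold change of KIRA6 over vehicle (x axis, log2(FPKM + 0.5) scale, points with SE bars) for the 58 members (y axis, grouped by role). Filled points mark the 42 members called at an adjusted p below 0.05, all on the negative side, and the dashed line marks the median of all genes tested, 0.16.

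The promoters of the members were read for the E-box that MYC and its partner MAX bind, CACGTG, which reads the same on both strands. RefSeq promoter windows on GRCm38.p6, from 250 bases before to 50 bases after the transcription start, matched 47 of the 58 members. The E-box was present in 12 of the 47 (25.5%), in 12.4% of 8513 tested genes with a window and in 8.09% of all 27025 genes with a window. In 4 of these members (Nol11, Nop2, Rrp7a and Utp18) it lay before the start, and in 8 within the first 50 bases after it. Before the start alone, 8.51% of members and 10.4% of tested genes held it, so the excess over tested genes lay in the 50 bases that follow the start. That excess rests on 8 members and was not tested. The sequences are 30-base windows from 5 of the 12 members, whose values in every library are also given, and the 250 bases before the start of Nop2, all 5′ to 3′ on the gene's strand with the E-box in capitals. A match is a description of the sequence and not evidence of a bound site.
Utp4 (chr8:106893643-106893672, plus strand): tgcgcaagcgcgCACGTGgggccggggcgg
Mybbp1a (chr11:72441347-72441376, plus strand): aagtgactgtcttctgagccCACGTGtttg
Pno1 (chr11:17211540-17211569, minus strand): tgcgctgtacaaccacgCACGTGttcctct
Pes1 (chr11:3963965-3963994, plus strand): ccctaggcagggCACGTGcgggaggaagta
Ltv1 (chr10:13193092-13193121, minus strand): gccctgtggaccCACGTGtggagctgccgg
Nop2 (chr6:125131633-125131882, plus strand): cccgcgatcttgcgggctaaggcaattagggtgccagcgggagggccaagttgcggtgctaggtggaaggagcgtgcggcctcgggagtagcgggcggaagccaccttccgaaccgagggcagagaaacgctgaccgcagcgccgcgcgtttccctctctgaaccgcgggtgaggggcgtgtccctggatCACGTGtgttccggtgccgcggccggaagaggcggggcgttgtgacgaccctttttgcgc
The 12 members with the E-box were Ltv1, Mybbp1a, Nol11, Nop2, Pes1, Pno1, Rrp7a, Tsr1, Utp18, Utp20, Utp4 and Wdr43. Their log2 fold changes ran from −1.75 (Nop2) to −0.65 (Rrp7a) with a median of −1.08, against a median of −1.03 for the 35 members whose window lacked the E-box. The 11 members without a promoter entry (Bop1, Fbl, Gnl2, Nol6, Nop53, Npm1, Rrp12, Rrs1, Utp11, Utp23 and Utp6) had a median of −0.56. Members with and without the motif thus covered overlapping ranges. The letters CGCG were present in 78.7% of the 47 members, 79.1% of tested genes and 40.6% of all genes, and TATAAA in 10.6%, 7.93% and 15.7%, each read on both strands.

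The transcripts of all 3 members that encode box C/D snoRNP proteins, which carry the snoRNAs that guide 2′-O-methylation of rRNA, fell, and their summed level was 0.436 times that of vehicle. Over all genes tested 7.98% were called lower, and over the 58 members 72.4%. Those are the shares to set beside the count of each role, here and in the paragraphs that follow. No difference between roles was tested. Nop56, a core scaffold protein (ENSMUSG00000027405, chromosome 2, 130116350 to 130121233 on the plus strand; all gene coordinates are on GRCm39), had 59.7, 45.3 and 44.2 FPKM in the KIRA6 libraries, against 152, 149.8 and 124 FPKM in the vehicle libraries. Its log2 fold change was −1.51 ± 0.17 (SE), and the lowest vehicle library exceeded the highest KIRA6 library by more than the whole KIRA6 range. Fibrillarin (Fbl), the methyltransferase of the complex, had 72.4, 47.9 and 44.5 FPKM in the KIRA6 libraries, against 119, 118 and 76.5 FPKM in the vehicle libraries, a log2 fold change of −0.93 ± 0.26. The Fbl groups came close, since KIRA6 replicate 1 was high and Vehicle replicate 3 low, and its call was kept in 2 of the 6 fits that each left out 1 library. Nop58, the paralogue of Nop56, had 10.1, 12.5 and 9.73 FPKM in the KIRA6 libraries, against 21.6, 19.1 and 14.1 FPKM in the vehicle libraries, a log2 fold change of −0.72 ± 0.19. The Nop58 groups did not overlap, and its call was kept in 1 of the 6 fits.

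Of the 5 members that act with box H/ACA snoRNAs, which guide pseudouridylation, 4 fell and Nop10 was not called. Their summed level was 0.426 times that of vehicle. Dyskerin (Dkc1), the pseudouridine synthase (ENSMUSG00000031403, chromosome X, 74139460 to 74153383 on the plus strand), had 12.2, 14.7 and 13.7 FPKM in the KIRA6 libraries, against 30.96, 27.5 and 25.9 FPKM in the vehicle libraries, a log2 fold change of −1.03 ± 0.14. Gar1, which helps release the modified RNA, had 20.2, 22.2 and 18.5 FPKM in the KIRA6 libraries, against 48.9, 36.5 and 36.3 FPKM in the vehicle libraries, a log2 fold change of −0.97 ± 0.17. In both genes the groups lay apart, with Vehicle replicate 1 of Gar1 above its other vehicle libraries. Nhp2, a core RNA-binding subunit and the member with the second highest vehicle level, had 123, 86.9 and 62.4 FPKM in the KIRA6 libraries, against 320.2, 307 and 198 FPKM in the vehicle libraries. Its log2 fold change was −1.62 ± 0.30, with a wide spread inside both groups but no overlap. Nolc1 (Nopp140), a chaperone that concentrates both snoRNP classes in the nucleolus and Cajal bodies (ENSMUSG00000015176, chromosome 19, 46064302 to 46073969 on the plus strand), had 20.8, 25.5 and 27.5 FPKM in the KIRA6 libraries, against 74.5, 77.8 and 117 FPKM in the vehicle libraries. This was the third largest decrease of the 58, −1.82 ± 0.21, and the vehicle spread came from replicate 3. Nop10, the smallest core subunit, had 94.02, 71.5 and 52.4 FPKM in the KIRA6 libraries, against 105, 95.3 and 63.1 FPKM in the vehicle libraries. The Nop10 groups overlapped, with a difference of −0.28 ± 0.28, the smallest of the 5.

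The small subunit processome supplied 21 members, of which 14 fell and 7 were not called, with a summed level 0.4997 times that of vehicle and a median log2 fold change of −0.93. The UtpA subcomplex, which binds the nascent precursor first and also takes part in rDNA transcription, supplied Utp4, Utp15, Heatr1 (Utp10 in yeast), Wdr43 (Utp5), Wdr75 (Utp17) and Nol11 (a subunit in human cells), and all 6 fell. Utp4 (ENSMUSG00000041438, chromosome 8, 107620268 to 107649720 on the plus strand), whose E-box lies just after the start, had 26.2, 25.9 and 24.8 FPKM in the KIRA6 libraries, against 74.4, 74.7 and 82.1 FPKM in the vehicle libraries, a log2 fold change of −1.57 ± 0.12. Heatr1 (ENSMUSG00000050244, chromosome 13, 12409908 to 12455170 on the plus strand) had 6.76, 5.88 and 8.05 FPKM in the KIRA6 libraries, against 21.4, 23.5 and 26.2 FPKM in the vehicle libraries, a log2 fold change of −1.72 ± 0.16. Neither gene had a vehicle library within 2-fold of its highest KIRA6 library. Wdr43, Utp15, Wdr75 and Nol11 had log2 fold changes of −1.28, −1.21, −0.997 and −0.93, all without overlap between the groups.

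Rrp9, the protein specific to the U3 snoRNP that pairs with the precursor (ENSMUSG00000041506, chromosome 9, 106353162 to 106362623 on the plus strand), had 20.9, 17.7 and 15.4 FPKM in the KIRA6 libraries, against 69.9, 74.3 and 62.6 FPKM in the vehicle libraries. At −1.92 ± 0.16 it was the second largest decrease among the 58. Nop14, which works with Noc4l and the methyltransferase Emg1, had 15.3, 16.7 and 18.6 FPKM in the KIRA6 libraries, against 28.9, 23.9 and 28.7 FPKM in the vehicle libraries, a log2 fold change of −0.67 ± 0.14. The Nop14 groups did not overlap, and Noc4l itself fell by more, −0.98 ± 0.12. The other called members were Utp18 (UtpB subcomplex, −1.17), Nol10 (−1.10), the RNA-binding protein Nop9 (−0.81), Utp14a, an activator of the helicase DHX37 (−0.77), and Utp11 (−0.49). Among the 7 not called, Utp20 (−0.94 ± 0.30) and Utp6 (−0.61 ± 0.19) had groups that did not overlap, while those of Rrp7a (−0.65 ± 0.23), Utp23 (−0.53 ± 0.21), Utp3 (−0.31 ± 0.17), Nol6 and Rrp36 did. Nol6, the yeast Utp22 homologue, had 4.18, 11.5 and 11.9 FPKM in the KIRA6 libraries, against 6.77, 8.90 and 27.3 FPKM in the vehicle libraries, and is given in full because of its spread, seen after its values were known. Its difference of −0.48 ± 0.59 turned to 0.10 without Vehicle replicate 3, which alone had 27.3 FPKM.

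Rrp36, which acts in early cleavage of the precursor, was the member with the highest fold change. It had 23.01, 16.9 and 15.8 FPKM in the KIRA6 libraries, against 17.03, 16.5 and 10.8 FPKM in the vehicle libraries. The groups overlapped and the difference of 0.33 ± 0.23 was not called, so no direction is assigned to it.

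Of the 6 factors of 40S maturation 5 fell and Riok1 was not called, with a summed level 0.430 times that of vehicle. Rrp12, a HEAT repeat protein needed for export of pre-ribosomes (ENSMUSG00000035049, chromosome 19, 41851290 to 41884612 on the minus strand), had 6.55, 7.31 and 7.78 FPKM in the KIRA6 libraries, against 19.7, 26.3 and 35.2 FPKM in the vehicle libraries. Its log2 fold change was −1.80 ± 0.22, and although the vehicle libraries differed among themselves, all of them were far above the KIRA6 libraries. Bystin (Bysl, ENSMUSG00000023988, chromosome 17, 47910256 to 47922417 on the minus strand), which rides on the pre-40S particle out of the nucleolus, had 12.4, 10.2 and 9.77 FPKM in the KIRA6 libraries, against 35.9, 38.7 and 33.96 FPKM in the vehicle libraries, a log2 fold change of −1.71 ± 0.14. The Bysl libraries were tight in both groups. Pno1 (Dim2 in yeast), which sits at the 3′ end of the future 18S rRNA until the last cut, had 51.6, 37.1 and 36.5 FPKM in the KIRA6 libraries, against 103, 92.7 and 57.6 FPKM in the vehicle libraries, a log2 fold change of −0.98 ± 0.26. Ltv1, which leaves the particle late in maturation, had 16.1, 17.5 and 16.9 FPKM in the KIRA6 libraries, against 30.5, 26.6 and 35.4 FPKM in the vehicle libraries, a log2 fold change of −0.85 ± 0.14. The groups of Pno1 and Ltv1 did not overlap, and the Pno1 call was kept in 2 of the 6 fits that left out 1 library against 6 for Ltv1. Tsr1, a GTPase-like factor that blocks early joining of the 60S subunit, fell by 1.30 on the log2 scale. The kinase gene Riok1, which acts in the last cytoplasmic steps, had 3.02, 2.33 and 2.06 FPKM in the KIRA6 libraries, against 3.71, 3.28 and 1.61 FPKM in the vehicle libraries, overlapping groups and a difference of −0.13 ± 0.29.

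The 60S assembly factors, 18 members, included the largest single decrease and also the member whose KIRA6 libraries were all higher. Of the 18, 12 fell and 6 were not called, the median log2 fold change was −1.12 and the summed level was 0.468 times that of vehicle. Rrs1, which helps install the 5S ribonucleoprotein in the 60S precursor (ENSMUSG00000061024, chromosome 1, 9615633 to 9617680 on the plus strand), had 33.1, 24.96 and 26.5 FPKM in the KIRA6 libraries, against 122, 129 and 93.8 FPKM in the vehicle libraries. At −2.00 ± 0.18 it was the largest decrease of the 58. Nop2, the methyltransferase that makes 5-methylcytosine in 28S rRNA (ENSMUSG00000038279, chromosome 6, 125108872 to 125121716 on the plus strand), whose promoter with its E-box is printed above, had 36.4, 34.2 and 31.3 FPKM in the KIRA6 libraries, against 111, 118 and 116 FPKM in the vehicle libraries. The Nop2 libraries were tight in both groups, and its log2 fold change was −1.75 ± 0.12. Nop16 (ENSMUSG00000025869, chromosome 13, 54731998 to 54737903 on the minus strand), a 60S assembly factor described as a MYC target in human cells, had 33.7, 20.2 and 17.01 FPKM in the KIRA6 libraries, against 95.3, 92.8 and 52.96 FPKM in the vehicle libraries. Its log2 fold change of −1.76 ± 0.33 had a larger error, since KIRA6 replicate 1 and Vehicle replicate 3 lay towards each other.

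The PeBoW complex (Pes1, Bop1 and Wdr12) is needed to process the precursor of 28S and 5.8S rRNA, and all 3 of its genes had vehicle libraries above their KIRA6 libraries. Wdr12 had 7.21, 5.11 and 4.54 FPKM in the KIRA6 libraries, against 20.3, 18.7 and 10.5 FPKM in the vehicle libraries, a log2 fold change of −1.44 ± 0.29. Bop1 had 15.9, 22.9 and 20.2 FPKM in the KIRA6 libraries, against 30.1, 38 and 55.9 FPKM in the vehicle libraries, a log2 fold change of −1.02 ± 0.25. Wdr12 and Bop1 were called lower, with calls kept in 3 and 2 of the 6 fits that left out 1 library. Pes1 had 74.3, 52.95 and 48.5 FPKM in the KIRA6 libraries, against 120.1, 122 and 76.5 FPKM in the vehicle libraries, and its difference of −0.85 ± 0.25 was not called. The Pes1 groups were closest between KIRA6 replicate 1 and Vehicle replicate 3, and Pes1 was called lower when either of these libraries was left out.

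Gnl3 (nucleostemin), a GTPase that is high in stem and tumour cells, had 7.67, 9.16 and 7.85 FPKM in the KIRA6 libraries, against 22.4, 18.8 and 18.8 FPKM in the vehicle libraries, a log2 fold change of −1.23 ± 0.14. Its relative Gnl2, a GTPase of late nucleolar 60S particles, had −0.56 ± 0.20 and was not called, although its groups did not overlap. Other members that fell were Nol9 (−1.58), the polynucleotide kinase that acts with LAS1L in removing the second internal spacer, Rrp1b (−1.41), the rRNA methyltransferase gene Rrp8 (−1.34), Noc2l (−1.20), Rrp15 (−1.04) and Nol12 (−0.92). Noc3l, the partner of Noc2l, had −0.74 ± 0.22 and was not called, with no overlap between the groups. Nop53, a nucleolar protein that in yeast brings the exosome to the 60S precursor (ENSMUSG00000041560, chromosome 7, 15670108 to 15679999 on the minus strand), had 56.9, 55.6 and 51.1 FPKM in the KIRA6 libraries, against 45.99, 47.4 and 47.4 FPKM in the vehicle libraries. It was the single member whose KIRA6 libraries all lay above its vehicle libraries, by 0.21 ± 0.12, a difference that was not called and that was −0.011 with median-ratio scaling. Rrp1, the paralogue of Rrp1b, had 58.5, 58.8 and 59.6 FPKM in the KIRA6 libraries, against 73.3, 71.9 and 69.4 FPKM in the vehicle libraries, a non-overlapping difference of −0.28 ± 0.11, also not called. Nol8 had overlapping groups and the lowest level of the 58, between 0.43 and 1.21 FPKM.

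The 5 members for abundant proteins that organize the nucleolus or link it to rDNA transcription had the highest ratio of summed levels of the 6 roles, 0.683 times the vehicle level, and without Npm1, which supplied most of the KIRA6 sum and was not called, the ratio was 0.498. Mybbp1a, a repressor of rDNA transcription that also takes part in rRNA processing (ENSMUSG00000040463, chromosome 11, 72332181 to 72342594 on the plus strand), had 55.5, 57.7 and 60.8 FPKM in the KIRA6 libraries, against 134, 151 and 185 FPKM in the vehicle libraries, a log2 fold change of −1.41 ± 0.16. The helicase gene Ddx21 had 26.8, 28.4 and 33.6 FPKM in the KIRA6 libraries, against 87.1, 84.5 and 101 FPKM in the vehicle libraries, a log2 fold change of −1.60 ± 0.15. Both had groups far apart. Nucleolin (Ncl), a histone and RNA chaperone (ENSMUSG00000026234, chromosome 1, 86272441 to 86287122 on the minus strand), had 86.7, 118 and 118 FPKM in the KIRA6 libraries, against 171, 152 and 172 FPKM in the vehicle libraries, a log2 fold change of −0.63 ± 0.17. Nucleolin was called lower without overlap, but the call was lost in each of the 6 fits that left out 1 library. Npm3, of the nucleoplasmin family, had 79.2, 72.01 and 56.4 FPKM in the KIRA6 libraries, against 132, 122 and 99.01 FPKM in the vehicle libraries, a log2 fold change of −0.77 ± 0.19. Nucleophosmin (Npm1), the most abundant member and the scaffold of the granular layer of the nucleolus (ENSMUSG00000057113, chromosome 11, 33102287 to 33113206 on the minus strand), had 358, 467 and 419.6 FPKM in the KIRA6 libraries, against 556, 467 and 366 FPKM in the vehicle libraries. Npm1 groups overlapped, with a difference of −0.15 ± 0.20 that was not called.

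**Figure D2:**
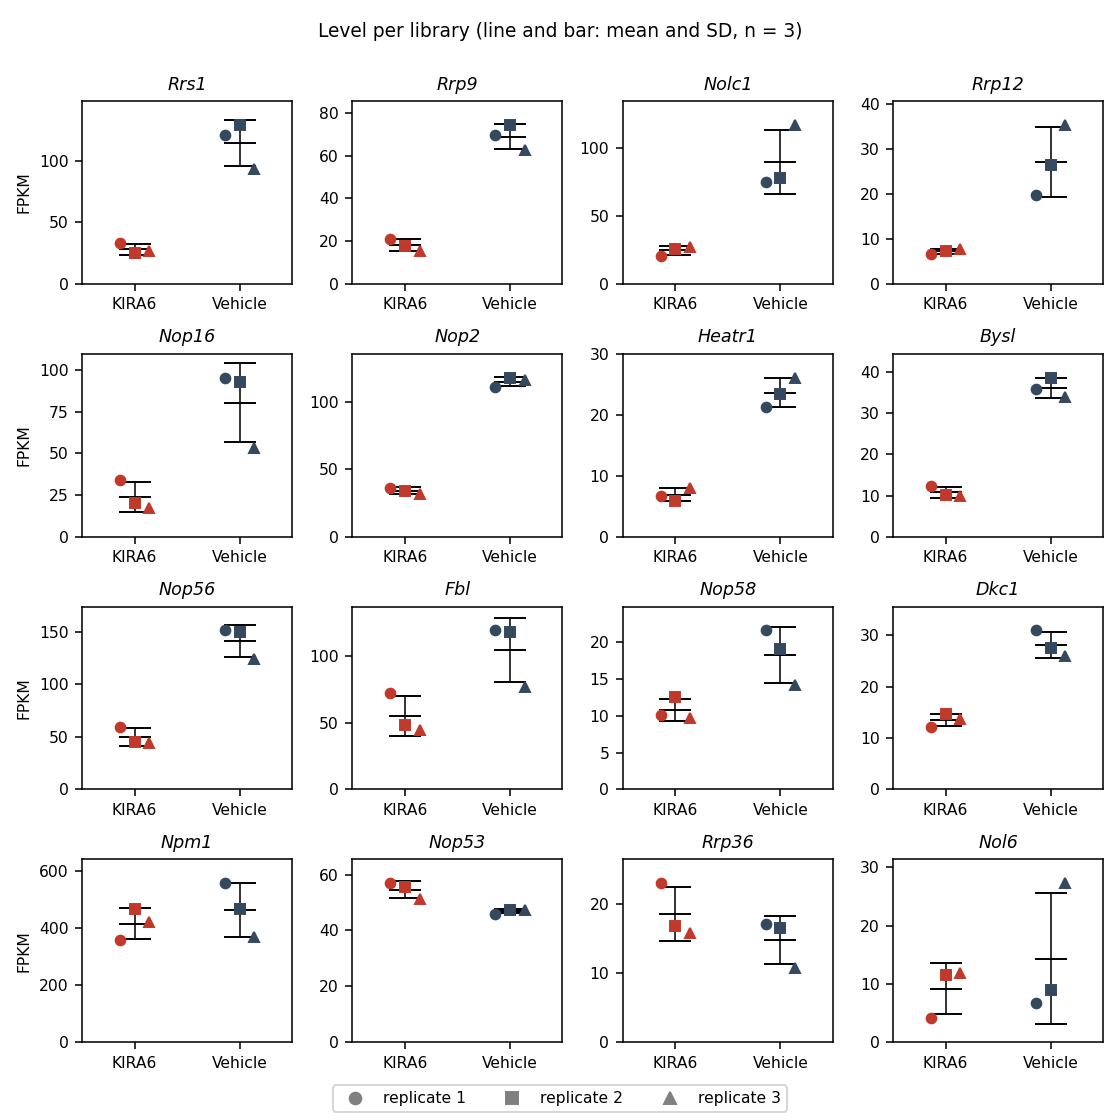
FPKM (y axis, from 0, own scale per panel) of 16 members in the KIRA6 libraries (left in each panel) and the vehicle libraries (right), with marker shape for the replicate and lines for mean and SD (n = 3). The groups lie apart for Rrs1 to Dkc1, where Fbl and Nop58 come closest, and overlap for Npm1, Rrp36 and Nol6, while Nop53 is slightly higher with KIRA6.

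**Figure D3:**
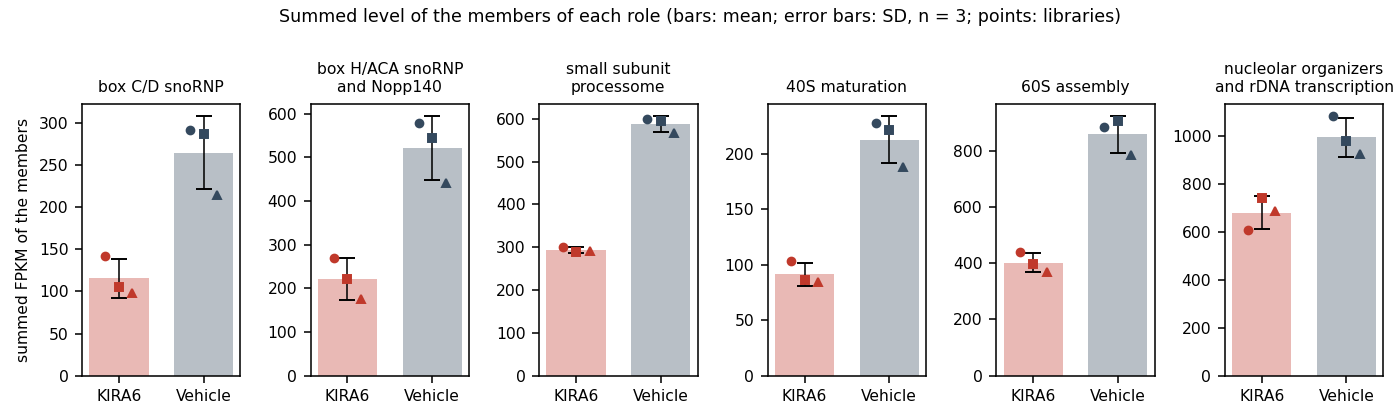
Summed FPKM of the members of each role (y axis, from 0, own scale per panel), KIRA6 left and vehicle right, with bars for the mean, error bars for the SD (n = 3) and points for the libraries. In all 6 panels the KIRA6 libraries lie below the vehicle libraries, with ratios of the means from 0.426 (box H/ACA and Nopp140) to 0.683 (nucleolar organizers).

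The levels of the members covered a wide range, and FPKM is per length, so they can be set side by side. In vehicle cells Npm1 (463 FPKM), Nhp2 (275), Ncl (165), Mybbp1a (157) and Nop56 (142) led, and Nol8 (1.11) and Riok1 (2.87) were lowest. In KIRA6-treated cells the leading 5 were Npm1 (415 FPKM), Ncl (107), Nhp2 (90.8), Nop10 (72.6) and Npm3 (69.2). Ncl and Mybbp1a, and Mybbp1a and Nop56, did not differ in vehicle beyond their spread of 11.6, 25.8 and 15.3 FPKM (SD). Members with large decreases moved down the order: Nop2 stood 15th with KIRA6 and 7th with vehicle, and Rrs1 17th and 8th. Of the 16 members that were not called, 13 stood higher in the KIRA6 order than in the vehicle order and 3 (Npm1, Riok1 and Nol8) kept their place. The order was taken among the 58 members, most of which fell, so members with small changes move up in it. These shifts restate the fold changes and are no separate result. Among the 13, Nop10 stood 4th with KIRA6 and 13th with vehicle, Rrp1 6th and 18th, and Rrp36 23rd and 50th. The deposited exonic lengths set these levels. That of Riok1 is 9459 bases against 2738 for its longest GENCODE M21 transcript, and that of Gnl3 6101 against 2264, so their FPKM are lower than a transcript length would give. Over the 58, the log2 vehicle level and the log2 fold change had Pearson's r = −0.31, exonic length and fold change r = −0.02, and GC content and fold change r = −0.24, points that share the same 6 libraries.

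Within the groups, 2 libraries were often the extreme ones, in opposite ways for different members. Vehicle replicate 3 was the lowest vehicle library in 33 members and the highest in 18, and KIRA6 replicate 1 was the highest KIRA6 library in 33 and the lowest in 20. In 26 members, such as Nop16, Nhp2, Fbl, Pes1 and Wdr12, these 2 libraries lay towards each other, with Vehicle replicate 3 lowest and KIRA6 replicate 1 highest. In 14, such as Nol6, Bop1, Utp20, Rrp12 and Nolc1, they lay away from each other, with Vehicle replicate 3 highest and KIRA6 replicate 1 lowest. The same opposition ran through all genes tested: across genes, the 2 differences had r = −0.85 over the 58 members, −0.80 over the 57 without Nol6, and −0.842 over the 11778 genes. Without these 2 libraries together, 52 members were called lower and 1, Nol6, higher. That fit called 6610 of the 11778 genes lower or higher, against 2783 with all libraries, so calls rose over all genes and not in the members alone. The 2 libraries were left out because they stood apart, which by itself narrows the spread. That fit also sets KIRA6 replicates 2 and 3 against Vehicle replicates 1 and 2. Across genes, deviations of KIRA6 replicate 1 from its group mean correlated at 0.762 and 0.713 with those of Vehicle replicates 1 and 2. With those of Vehicle replicate 3 they correlated at −0.842. Treatment and this pattern between libraries cannot be told apart in that fit. Deviations of KIRA6 replicates 2 and 3 correlated at 0.524 and 0.738 with those of Vehicle replicate 3. The pattern was therefore uneven between the groups also with all libraries, and when only 1 of these 2 libraries was left out. Its part in those fits was not tested.

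**Figure D4:**
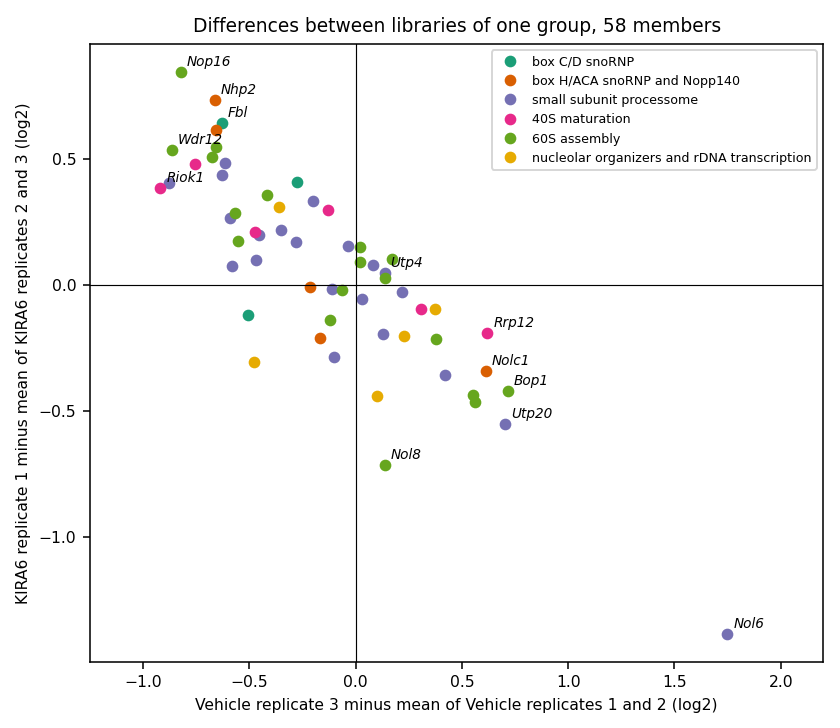
For each of the 58 members (points, coloured by role), Vehicle replicate 3 minus the mean of Vehicle replicates 1 and 2 (x axis, log2) and KIRA6 replicate 1 minus the mean of KIRA6 replicates 2 and 3 (y axis, log2). The points fall along a descending diagonal (r = −0.85, and −0.80 without Nol6), with Nol6 at the lower right and Nop16, Wdr12 and Riok1 at the upper left.

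The calls differed in how often they were kept when 1 library was left out. Such fits have fewer libraries, so a call near the threshold can be lost without resting on any single library. Of the 42 calls, 27 were kept in all 6 fits that each left out 1 library, among them Rrs1, Rrp9, Nolc1, Rrp12, Nop2, Heatr1, Bysl, Ddx21, Utp4 and Nop56. The other 15 were kept in 5 fits (Nop16, Nhp2 and Rrp15), 3 (Wdr12 and Nop14), 2 (Utp18, Bop1, Pno1, Fbl, Nol12, Npm3 and Utp14a), 1 (Nop58 and Utp11) or 0 (Ncl). The number of members called lower in these fits ran from 28, without KIRA6 replicate 2, to 47, without Vehicle replicate 3. Calls over all genes, lower or higher, were 1211 and 3392 in these 2 fits, against 2783 with all libraries. The sign was steadier than the call: 54 members were negative in each of the 6 fits, and 56 under each of 4 other scalings of the libraries.

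Other features of the member genes were compared with all genes tested as a description. Exonic length (median 3912 bases, against 4086) and GC content (48.2%, against 49.7%) were close to those of all genes. A snoRNA gene lies inside 8 of the 58 (13.8%), on the same strand in GENCODE M21, against 229 of 11611 tested genes (1.97%). The host members are Nop56 with 5, Nop58 with 4, Gnl3, Ncl and Wdr43 with 3 each, Tsr1 with 2, and Dkc1 and Nop53 with 1 each. Of these 8, 7 were called lower and Nop53 was not called, beside 42 of all 58 members. Polyadenylated RNA was selected, so levels of the snoRNAs are not reported here. The members sit on 18 chromosomes.

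A gene that starts within 1000 bases on the opposite strand, pointing away, was present for 9 of the 58 members (15.5%), against 10.1% of all genes tested. Of these neighbours, taken for their position alone, 4 were called higher, 1 lower and 4 were not called, beside 15.6% of all genes tested called higher and 7.98% lower. Beside Utp15 (−1.21), Ankra2 rose by 0.96 on the log2 scale (limma, adjusted p = 0.03255), and beside Nop9 (−0.81), Dhrs1 rose by 0.88 (adjusted p = 0.01545). Dhrs1 had 16.9, 14.4 and 13.98 FPKM with KIRA6, against 8.44, 9.33 and 6.30 FPKM with vehicle. Beside Nop16 (−1.76), Higd2a had 51.3 ± 6.12 FPKM with KIRA6 and 36.9 ± 0.830 FPKM with vehicle (SD, n = 3 each) and was called higher (limma, adjusted p = 0.04878), a call kept in 0 of the 6 fits that left out 1 library. Cenpp, beside Nol8, rose by 1.07 (adjusted p = 0.02043). Ddx51, itself a 60S helicase gene and the neighbour of Noc4l (−0.98), was the neighbour called lower, at −0.77 (limma, adjusted p = 0.01622). The calls for Cenpp, Ankra2 and Ddx51 were kept in 2 of those 6 fits each, and that for Dhrs1 in 5. Chtf8 beside Utp4, Hsf1 beside Bop1, Mbtd1 beside Utp18 and Med20 beside Bysl were not called, with log2 fold changes from −0.26 to 0.48.

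Some members overlap another gene, and reads from the shared stretch cannot be assigned with certainty, because the strand setting used in counting is not given in the sources used here. All of Pno1 (8371 bases) lies within Dnaaf10 on the other strand, and Bop1 shares 2007 bases with Scx, whose listed level of 21.9 FPKM over the 6 libraries compares with 30.5 FPKM for Bop1. Rrp7a (with Serhl, 3242 bases), Tsr1 (with Srr, 2984 bases), Rrp9 (with Parp3, 987 bases), Heatr1 (with Lgals8, 875 bases) and Rrp8 (with Ilk, 794 bases) also share a stretch with a gene on the opposite strand. Another 6 members (Bysl, Mybbp1a, Dkc1, Nhp2, Gnl3 and Nop56) do so over 5 to 361 bases. Values of these 13 members carry that uncertainty.

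Ribosome biogenesis genes outside the 58 were called lower in part. In 5 lists of other factors, chosen with earlier results of these data known, 63 of 122 tested genes were called lower, 59 were not called and 0 were called higher, with a median log2 fold change of −0.73, beside 7.98% and 15.6% of all genes tested and their median of 0.16. At an unadjusted p below 0.05, 79 of the 122 were lower and 0 higher, and limma-voom called 64 lower and 0 higher. In 78 every KIRA6 library was below every vehicle library and in 3 above, beside 14.1% and 27.7% of all genes tested. With 1 KIRA6 library left out, the number called lower was 57, 30 and 38 (replicates 1, 2 and 3), and with 1 vehicle library left out it was 40, 32 and 80. Calls over all genes in these fits ran from 1211 to 3392, against 2783 with all libraries. Leaving out both libraries that stood apart gave 99, in the fit where treatment and the pattern between libraries cannot be told apart. That fit called 6610 of all genes tested. These lists belong to the same pathway as the members and come from the same 6 libraries, so they are not independent of them.

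Among 49 other 60S assembly genes 32 were called lower, with a median of −1.004. Over all genes tested 7.98% were called lower, the share to set beside each list count here. Ppan had 9.73, 10.7 and 9 FPKM with KIRA6, against 28.9, 29.6 and 34.97 FPKM with vehicle. Its log2 fold change was −1.62 ± 0.14 (SE; limma, adjusted p = 0.001032). Lyar, a nucleolar zinc finger protein, had 15.2, 16.4 and 14.9 FPKM with KIRA6, against 49.99, 45.1 and 40.1 FPKM with vehicle, a log2 fold change of −1.50 ± 0.13 (adjusted p = 0.001156). Both calls were kept in all 6 fits that left out 1 library. Urb1 was lower and noisier, at 1.09 ± 0.250 FPKM with KIRA6 and 4.39 ± 2.38 FPKM with vehicle (SD, n = 3 each; limma, adjusted p = 0.02143), a call kept in 2 of the 6. Of 29 other small subunit processome genes 14 fell (median −0.75), led by the cyclase-like Rcl1 (−1.52), the UtpB protein Wdr36 (−1.48) and the rRNA acetyltransferase Nat10 (−1.43), with limma adjusted p of 0.009152, 0.00408 and 0.004951. Of 7 other 40S maturation genes 2 fell (median −0.37): the dimethyltransferase gene Dimt1 (−1.19, adjusted p = 0.01405, kept in 3 of 6 fits) and Nob1 (−1.12, adjusted p = 0.009578, kept in 5), the nuclease of the last 18S cut.

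The enzymes that trim rRNA and the machinery that assembles snoRNPs were called lower in part, beside 7.98% of all genes tested. Of 24 tested genes of the RNA exosome and other rRNA nucleases 8 fell (median −0.37), led by Pop1 of RNase P and MRP (−1.31, adjusted p = 0.00252), the exosome cap subunit Exosc2 (−1.18, adjusted p = 0.01935, kept in 2 of 6 fits) and the exosome nuclease Dis3 (−1.15, adjusted p = 0.007706). Exosc6 is listed at 0 in every library. Of 13 snoRNP assembly genes 7 were called lower (median −0.73). Among them, Nopchap1 (0.363 FPKM with KIRA6 and 0.850 FPKM with vehicle) passed the filter on low values through its vehicle level. Its call is no support, though the counts include it. The other calls, in lists chosen with earlier results known, are a description as well. Naf1, the assembly factor that precedes Gar1 on H/ACA complexes, had 5.81, 8.41 and 11.5 FPKM with KIRA6, against 18.8, 20.1 and 37.4 FPKM with vehicle, a log2 fold change of −1.50 ± 0.33 (limma, adjusted p = 0.02134, kept in 4 of 6 fits). Znhit6, a box C/D assembly factor, had a log2 fold change of −0.998 (adjusted p = 0.004274), and the ATPase gene Ruvbl1 of −0.89 (adjusted p = 0.017, kept in 2). Of 11 tested long noncoding hosts of snoRNAs 2 were called lower (median −0.54), beside 7.98% of all genes tested, namely Snhg15 (−1.22, adjusted p = 0.008766) and Snhg17 (−0.77, adjusted p = 0.03516, kept in 2 of 6 fits).

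Genes of RNA polymerase I transcription, which makes the substrate of these factors, were a list of 15 that holds subunits, some shared with RNA polymerase III, and transcription factors. Of the 15, 6 were called lower and 0 higher, beside 7.98% and 15.6% of all genes tested. Only Taf1b was higher at an unadjusted p below 0.05, limma-voom called 0 higher, and the list median was −0.28. Polr1b, the second largest subunit, had 4.75, 4.24 and 4.62 FPKM with KIRA6, against 15.3, 17.3 and 17.2 FPKM with vehicle, a log2 fold change of −1.77 ± 0.13 (limma, adjusted p = 0.0006763). Cd3eap (also named Polr1g) had 11.5, 11.4 and 10.5 FPKM with KIRA6, against 34.7, 35.3 and 32.4 FPKM with vehicle, a log2 fold change of −1.57 ± 0.12 (adjusted p = 0.0007236). The groups lay far apart in both. Polr1e had −1.42 (limma, adjusted p = 0.01361, kept in 3 of 6 fits that left out 1 library). Ubtf, the factor that coats active rDNA, had 63.5, 48.9 and 50.1 FPKM with KIRA6, against 56.7, 60.4 and 44.5 FPKM with vehicle, chosen after its value was seen, and its groups overlapped.

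The MYC network, whose E-box was described above, differed in its members. Myc had 12.8, 23.01 and 21.8 FPKM in the KIRA6 libraries, against 30.5, 34.2 and 97.6 FPKM in the vehicle libraries. Its libraries did not overlap, but Vehicle replicate 3 was far above the other vehicle libraries, and the log2 fold change of −1.31 ± 0.47 (SE) was not called (limma, adjusted p = 0.09095). It was −0.78 without Vehicle replicate 3 and −0.52 without that library and KIRA6 replicate 1 together. The fit without both did call Myc, but there treatment and the pattern between libraries cannot be told apart. Max had 22.2, 20.4 and 19.4 FPKM with KIRA6, against 32.6, 33.6 and 31.9 FPKM with vehicle, a log2 fold change of −0.65 ± 0.12 (limma, adjusted p = 0.01123, kept in 4 of 6 fits), and Mlx also fell (−0.98, adjusted p = 0.007076). The MXD proteins pair with MAX at the same E-box and repress. Mxd4 had 9.40, 7.63 and 7.77 FPKM with KIRA6, against 0.630, 0.840 and 0.550 FPKM with vehicle, a log2 fold change of 2.90 ± 0.17 (limma, adjusted p = 0.0004325). Mxd3 rose by 1.60 (adjusted p = 0.001842), with both calls kept in each fit that left out 1 library. Mxd1 had 1.497 ± 0.127 FPKM with KIRA6 and 0.187 ± 0.0493 FPKM with vehicle (SD, n = 3 each) and passed the filter on low values only through its KIRA6 level, so its test is no support. With Mycl and Mxi1 this made 5 called higher (Mxd1 included) and 2 lower of 10 tested, beside 15.6% and 7.98% of all genes tested. These calls describe a list chosen with earlier results known. No link between these transcripts and the members was tested.

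In cells with functional p53, failed ribosome assembly is known to stabilize that protein through RPL5, RPL11 and MDM2. Transcripts of that axis were read as well. Of 7 tested genes 2 rose and 0 fell at an adjusted p below 0.05, beside 15.6% and 7.98% of all genes tested, with 0 lower at an unadjusted p below 0.05 and 0 lower by limma-voom. The 2 are near the share of all genes called higher. Bbc3 (PUMA) had 2.05, 1.89 and 2.09 FPKM with KIRA6, against 0.360, 0.510 and 0.730 FPKM with vehicle, a log2 fold change of 1.29 ± 0.18 (limma, adjusted p = 0.003816). Cdkn1a (p21) had 3.14, 3.46 and 3.08 FPKM with KIRA6, against 1.67, 1.54 and 1.71 FPKM with vehicle, a log2 fold change of 0.80 ± 0.14 (adjusted p = 0.008189, kept in 5 of 6 fits). Both were low in every library. The p53 protein and its function in these cells were not measured. The rises of Bbc3 and Cdkn1a are therefore no evidence of p53 activity, and their cause was not tested. Mdm2 (8.28, 7.54 and 8.37 FPKM with KIRA6, against 9.09, 9.99 and 6.52 FPKM with vehicle) and Trp53 had overlapping groups and were not called.

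**Figure D5:**
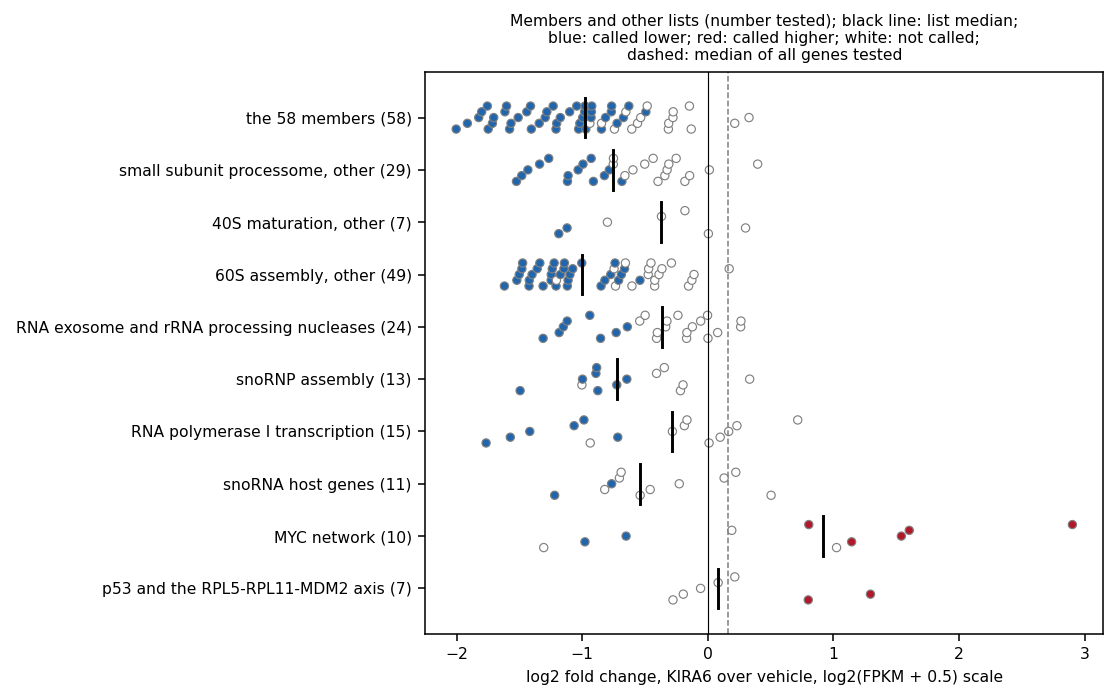
Log2 fold change of KIRA6 over vehicle (x axis, log2(FPKM + 0.5) scale) for the 58 members and 9 other lists (y axis, number tested in brackets), each point a gene, with called lower in blue, called higher in red and not called in white. Black lines mark list medians, from −1.004 for the other 60S factors and −0.98 for the members to 0.91 for the MYC network, beside the dashed median of all genes tested, 0.16.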

How the data were processed

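Polyadenylated RNA of 4T1 cells was sequenced in 3 KIRA6 and 3 vehicle libraries, with strand kept by dUTP, per the labels' protocols. The authors deposited FPKM per gene with exonic lengths and coordinates. Per the submitters' processing notes, the tools were HISAT2 2.2.1, cutadapt 1.9.1, DESeq2 1.34.0 and HTSeq 0.6.1 on GRCm39, with no order or settings. The total fragments of each library were recovered from the deposited FPKM, whose product with exonic length steps by whole fragments: 100% of 460 to 589 checked values per library came within 0.1 fragment of a whole number. FPKM are not counts, so the main test was on the log scale.

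A linear model of KIRA6 against vehicle on log2(FPKM + 0.5) was run in limma 3.58.1 (R 4.3.3). Its two-sided moderated test used robust empirical Bayes with an intensity trend, and Benjamini-Hochberg adjustment covered the 11778 genes whose mean reached 0.5 FPKM. A gene was called at an adjusted p below 0.05. With 3 against 3 libraries an exact permutation test of a single gene cannot go below 0.1, so none was used. The steps were tested on simulated data for KIRA6 against vehicle with 11778 genes: the share of 50 genes recovered was 2% at a 1.5-fold change, 40% at 2-fold, 78% at 4-fold and 92% at 8-fold. Of 113 simulated calls, 7 were false. The simulation changed far fewer genes than the real fit called and drew noise independently for each gene. Its shares check the steps and do not give the recovery in these libraries. FPKM depends on the share of other genes, so changes are relative within a library.

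The members and all other lists were chosen with earlier results of these data known. Every member is named, with full values for the 8 lowest and 4 highest fold changes and for a list of core factors. Of each other list, the 3 genes called lower and the 3 called higher with the largest changes are named, plus Myc and Max. Gene names came from the deposited table, GC content (52073 gene identifiers, 91.9%) and snoRNA genes from GENCODE M21, and promoters from RefSeq on GRCm38.p6. Alternatives used another pseudocount, filter, scaling, empirical Bayes setting or weighting of libraries, a replicate block, and fewer libraries.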

Additional observations from a re-analysis of the deposited data

How the results depend on the processing

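All-gene calls numbered 2783, members called lower 42, and other ribosome biogenesis genes called lower 63, with none higher in either. The pseudocount, the filters, 4 other scalings, the empirical Bayes settings and limma-voom kept these counts within 1.5 times. Library weights gave 10003 calls, 53 members lower and 1 higher, and 105 other biogenesis genes lower and 7 higher. Without Vehicle replicate 3 and KIRA6 replicate 1 together, there were 6610 calls, 52 members lower and 1 higher, and 99 other biogenesis genes lower and 1 higher. In that fit, treatment and the pattern between libraries cannot be told apart. With each library left out in turn, calls ran from 1211 to 3392, members lower from 28 to 47, members higher from 0 to 0, other biogenesis genes lower from 30 to 80 and higher from 0 to 0. The fewest were without KIRA6 replicate 2 and the most without Vehicle replicate 3. Over the 58 members and 21 alternatives (1217 values, since Nol8 was below the filter at a mean of 1 FPKM), 1076 values kept direction and side of the threshold, 63 lost their call, 72 gained one and 6 turned sign. Nol6 turned to 0.33 with library weights, 0.56 without the 2 libraries together and 0.10 without Vehicle replicate 3, Riok1 to 0.06 without Vehicle replicate 1 (its range over single libraries left out was −0.44 to 0.06, and that of Nol6 −0.87 to 0.10), Nop53 to −0.011 with median-ratio scaling and Rrp36 to −0.039 without the 2 libraries together. The cause was not tested.

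Same-numbered libraries had deviations that correlated at 0.762, −0.469 and 0.738 across genes. KIRA6 replicate 1 also correlated at 0.713 with Vehicle replicate 2, and KIRA6 replicates 2 and 3 both correlated best with Vehicle replicate 3. Deviations from a group mean constrain one another, so whether the numbers pair the libraries cannot be told from these values. A replicate block gave 4423 calls, 49 members lower and 80 other biogenesis genes lower. The block with GC content and length correction gave 4911 calls, 54 members lower and 99 other biogenesis genes lower.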
